A study of Mus musculus with 6 samples.

Results

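Iron and heme handling was followed through 10 genes: Hmox1, Blvrb, Fth1, Ftl1, Slc40a1, Tfrc, Slc11a1, Slc11a2, Ireb2 and Ncoa4. They were matched by name among the 35275 gene rows of the deposited count table, and all 10 were found and passed the filter on low counts. The RNA came from primary cultured microglia, the resident macrophages of the brain, of the C57/BL6 strain. The 3 control cultures were kept without regulatory T cells (Tregs), which are T cells that restrain immune responses, and the other 3 were cultured with Tregs for 2 days. Those Tregs had first spent 24 hours in transwell inserts over brain slices taken 5 days after tMCAO, transient occlusion of the middle cerebral artery, an experimental stroke. No genotype, age or sex is given, and no slice exposure or insert is recorded for the controls, so the Tregs, the slices and the insert cannot be told apart. Whether the replicates are independent animals or cultures is not stated, and the p-values cover only the variation among these 6 samples, part of which may be technical.

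Macrophages break down heme with heme oxygenase, which releases iron, carbon monoxide and biliverdin, and biliverdin is then reduced to bilirubin. The freed iron is stored in ferritin, a shell built of heavy and light chains, or leaves the cell through ferroportin, while iron bound to transferrin enters through the transferrin receptor. Iron regulatory proteins bind iron-responsive elements (IREs), short hairpins in the untranslated regions (UTRs) of mRNAs, and so block translation when the hairpin is near the start of the mRNA or protect the mRNA when it lies in its tail.

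The IRE sequences are shown because they sort the members by the kind of post-transcriptional control known for them, which read counts alone do not show. In the longest complete coding transcript of each gene in a GRCm38 annotation (GENCODE M21), a search was made for the loop CAGTGN closed by a stem of 5 base pairs, G-T pairs allowed, with an unpaired C before the stem and at most 1 extra base on its far side. Such a hairpin was present in 5 of the 10 genes. Over 21747 genes it was present in the 5′ UTR of 0.244%, in the 3′ UTR of 1.47% and in either of 1.71%. Matches in coding sequence were not counted. Matches across an exon junction were left out for the 10 genes but kept in these shares. A match describes the letters and is no proof of binding. Each stretch below is 30 bases, 5′ to 3′ on the strand of the gene, with the 6 loop bases in capitals. The first 3 lie in 5′ UTRs: Fth1 at chr19:9982731-9982760 (plus strand), Ftl1 at chr7:45459779-45459808 (minus strand) and Slc40a1 at chr1:45925465-45925494 (minus strand). In the transcripts searched, the loop began at base 670 for Fth1, 90 for Ftl1 and 102 for Slc40a1. The Fth1 match was thus not near the start of the long transcript searched, and shorter ones were not searched.
Fth1: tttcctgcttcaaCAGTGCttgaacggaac
Ftl1: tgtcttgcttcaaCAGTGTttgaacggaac
Slc40a1: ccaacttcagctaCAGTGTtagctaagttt
The Tfrc 3′ UTR held 4 of them on the plus strand, at chr16:32631218-32631247, chr16:32631597-32631626, chr16:32631662-32631691 and chr16:32631709-32631738, given here in that order. The last is the Slc11a2 3′ UTR match at chr15:100395153-100395182 (minus strand), the only one among the members that needs the extra base.
Tfrc site 1: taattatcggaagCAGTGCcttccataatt
Tfrc site 2: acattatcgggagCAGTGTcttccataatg
Tfrc site 3: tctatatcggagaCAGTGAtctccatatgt
Tfrc site 4: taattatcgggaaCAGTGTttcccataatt
Slc11a2: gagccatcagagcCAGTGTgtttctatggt
The Fth1 and Ftl1 stretches were identical at 27 of 30 bases, and each matched the Slc40a1 stretch at 13. Tfrc site 1 matched sites 2 and 4 at 25 bases each. No UTR match free of an exon junction was found in the transcripts searched for Hmox1, Blvrb, Slc11a1, Ireb2 or Ncoa4.

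The libraries held 16972758 to 22084542 counts and 17898 to 18507 genes with a count. Levels are CPM, counts relative to the TMM-scaled library total, as mean ± SD with n = 3 per group where a mean is given, and tests are edgeR's quasi-likelihood test with Benjamini-Hochberg adjustment over 13274 genes, called at an adjusted p below 0.05. Mitochondrially encoded genes took 1.36% ± 0.0347 of counts in controls and 0.700% ± 0.0684 in co-cultured libraries, and ribosomal protein genes 1.82% ± 0.0976 and 1.19% ± 0.0869. The part of these shares in the results below was not tested. In bulk RNA, fewer cells of a type and less RNA per cell cannot be told apart.

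In the co-cultured microglia the transcripts of ferroportin and of the ferritin breakdown receptor were lower, those of heme oxygenase and of the transferrin receptor were higher, and the ferritin chains shifted in opposite directions. Of the 10 genes, 7 were called, where 50.9% of all genes tested were called. Hmox1, Tfrc and Fth1 rose (3 of 10, against 25.9% of all genes), and Ncoa4, Slc40a1, Slc11a2 and Ftl1 fell (4 of 10, against 25.0%). Blvrb, Slc11a1 and Ireb2 did not pass the test. Groups did not overlap for 8 of the 10, against 57.2% of all genes. The median log2 fold change was -0.02 over the 10 genes and -0.01 over all genes, and the median size was 0.33 and 0.28. With so wide a background, the number of calls says little about these genes as a group, and they are described one by one.

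**Figure D1:**
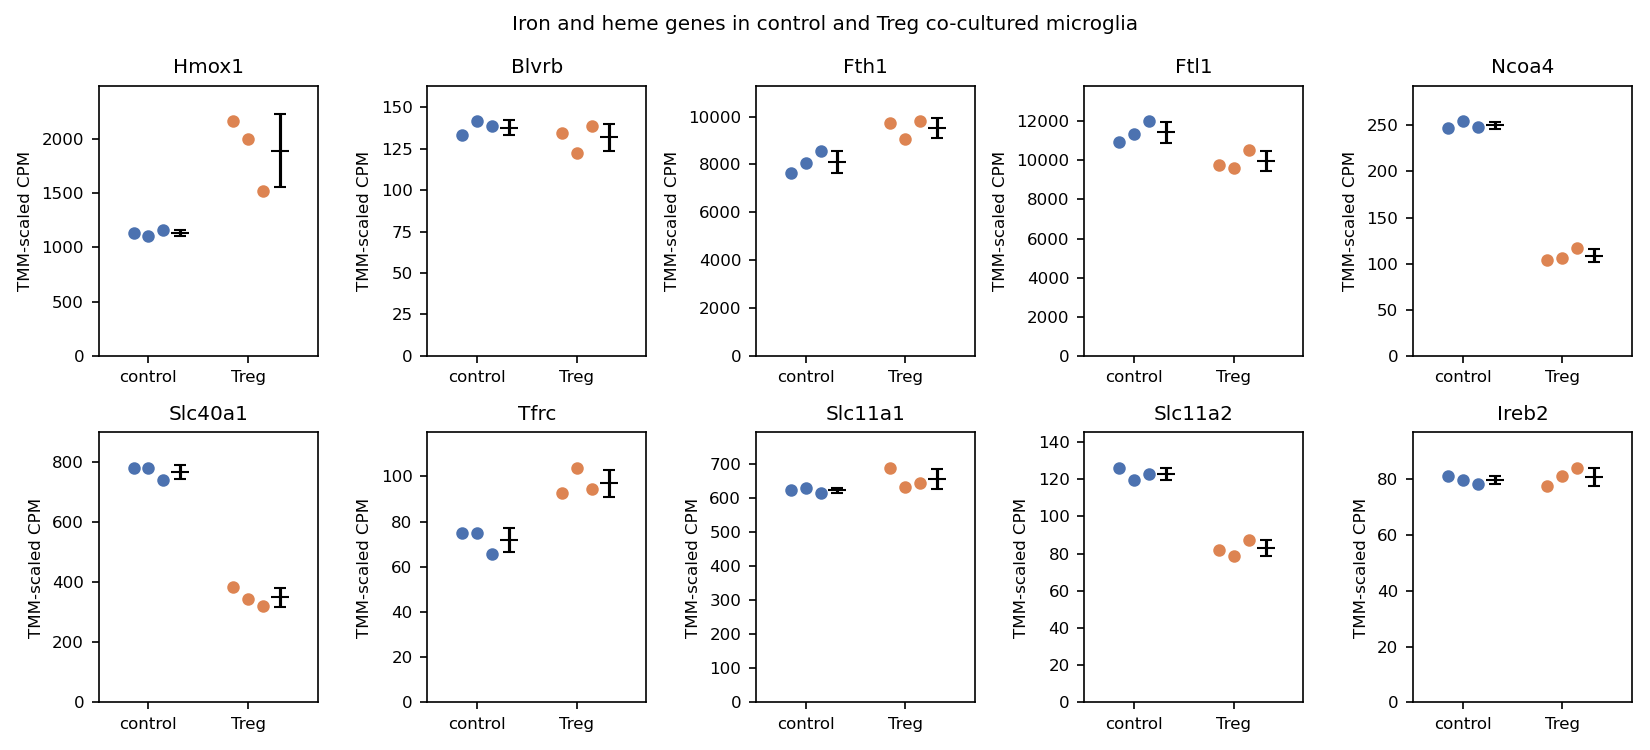
Level of each of the 10 genes in TMM-scaled CPM (vertical axis, from 0) in the 3 control and 3 Treg co-cultured libraries, with the group mean and SD in black beside the points. The groups lie apart for all genes except Blvrb and Ireb2, and co-cultured replicate 3 is the lowest of its group for Hmox1.

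Heme breakdown was marked by a rise of Hmox1 alone among the members. Hmox1 (ENSMUSG00000005413, chromosome 8, 75093621 to 75100589, plus strand), the inducible heme oxygenase and rate-limiting enzyme of heme breakdown, was at 1138, 1107 and 1163 CPM in control replicates 1 to 3 and at 2164, 1997 and 1520 CPM in the co-cultured ones. Every co-cultured library lay above every control, and co-cultured replicate 3 stood below the other two. The log2 fold change was 0.74 ± 0.13 (SE), a 1.67-fold rise with an adjusted p of 0.00557, and with 1 library left out it ran from 0.63 (without co-cultured replicate 1) to 0.87 (without co-cultured replicate 3). The highest adjusted p of these was 0.0398, without control replicate 3. Blvrb (ENSMUSG00000040466, chromosome 7, 27447978 to 27466144, plus strand), a biliverdin and flavin reductase, was at 133, 142 and 139 CPM in controls and at 135, 123 and 139 CPM after co-culture. The groups overlapped, and the log2 fold change of -0.06 had a 95% interval from -0.17 to 0.048 (adjusted p = 0.361). Blvrb was called lower when libraries were scaled by their upper quartile (-0.13, adjusted p = 0.0359) or by totals alone (-0.13, adjusted p = 0.0463).

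The partner enzymes placed these values in context. Hmox2, the constitutive heme oxygenase, rose from 66.5 ± 2.42 to 108 ± 0.664 CPM (log2 fold change 0.70 ± 0.05, adjusted p = 7.37e-13). Per length, in FPKM (fragments scaled by transcript length and library total), the ratio of Hmox1 to Hmox2 was 19.2, 17.5 and 18.5 in controls and 21.4, 20.02 and 15.1 in co-cultured libraries. These ranges overlapped, and the exact two-sided permutation test gave p = 0.9. Blvra, the main biliverdin reductase of adults, was at 73.0 ± 2.67 and 67.6 ± 2.06 CPM, with no overlap but an adjusted p of 0.102. Blvra was called lower with upper-quartile scaling (-0.18, adjusted p = 0.00706), with totals alone (-0.18, adjusted p = 0.0093) and in the FPKM table (-0.17, adjusted p = 0.00771). The FPKM ratio of Blvrb to Blvra was 2.68 ± 0.121 in controls and 2.77 ± 0.0919 after co-culture, with overlap (exact permutation p = 0.3).

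Both ferritin chains were among the most abundant transcripts of these cells, and they moved apart. Fth1 (ENSMUSG00000024661, chromosome 19, 9980598 to 9985098, plus strand), the heavy chain with ferroxidase activity, was at 7663, 8052 and 8569 CPM in controls and at 9732, 9046 and 9806 CPM after co-culture. The groups did not overlap, and the log2 fold change was 0.24 ± 0.05 (1.18-fold, adjusted p = 4.97e-04). Ftl1 (ENSMUSG00000050708, chromosome 7, 45457944 to 45459884, minus strand), the light chain that aids iron core formation, was at 10921, 11346 and 11994 CPM in controls and at 9759, 9595 and 10529 CPM after co-culture. Every co-cultured library lay below every control, and the log2 fold change was -0.20 ± 0.05 (adjusted p = 0.00278). Fth1 was at a log2 fold change of 0.16 with upper-quartile scaling (adjusted p = 0.0125) and 0.17 with totals alone (adjusted p = 0.00697), and the call held in both. In the FPKM table, where the values, the test and the filter differ together, limma gave 0.17 with an adjusted p of 0.124, and the call was lost. For Ftl1 the call was lost in the FPKM table without a filter (-0.26, adjusted p = 0.538).

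The chain ratio does not depend on library scaling. In FPKM, Fth1 was at 0.784, 0.793 and 0.799 of the Ftl1 level in controls and at 1.11, 1.05 and 1.04 of it after co-culture. All co-cultured libraries were above all controls, a 1.35-fold shift. The exact permutation test gave p = 0.1, which is the smallest value that 3 against 3 samples allow, and 0.16 after adjustment over the 8 ratios computed. Among all genes ranked by mean FPKM, Ftl1 ranked 2 in both groups, while Fth1 ranked 3 in controls and 1 after co-culture. Together the chains took 1.99% ± 0.0929 of all counts in controls and 1.90% ± 0.0830 after co-culture, with overlapping ranges. Rows for ferritin-like copies were nearly empty, with at most 11 counts for Fth-ps2, at most 25 for Ftl2 and 0 for Fthl17. The sources used here do not say how the counting treated reads shared with ferritin pseudogenes, so both levels are uncertain to that extent.

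Ncoa4 showed the largest fall of the 10 genes. Ncoa4 (ENSMUSG00000056234, chromosome 14, 32159865 to 32179855, plus strand) encodes the receptor that carries ferritin to lysosomes for breakdown, known as ferritinophagy. It was at 247, 254 and 248 CPM in controls and at 104, 106 and 117 CPM after co-culture. The groups were far apart, with a log2 fold change of -1.20 ± 0.05, 2.30-fold lower, and an adjusted p of 2.2e-19. Relative to Fth1 the FPKM ratio fell 2.71-fold, from 0.00659 ± 3.69e-04 to 0.00243 ± 1.42e-04, with no overlap (exact permutation p = 0.1).

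The exporter fell with it. Slc40a1 (ENSMUSG00000025993, chromosome 1, 45908068 to 45926523, minus strand), ferroportin, the known iron exporter of mammalian cells, was at 780, 780 and 738 CPM in controls and at 383, 343 and 321 CPM after co-culture. No co-cultured library came near a control, and the log2 fold change was -1.13 ± 0.06, 2.19-fold lower, with an adjusted p of 3.37e-17. Its rank among all genes by mean FPKM went from 248 to 644.

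Uptake genes moved in both directions. Tfrc (ENSMUSG00000022797, chromosome 16, 32608920 to 32632794, plus strand), transferrin receptor 1, was at 75.1, 74.9 and 65.8 CPM in controls and at 92.6, 104 and 94.2 CPM after co-culture. The groups did not overlap, and the log2 fold change was 0.43 ± 0.06 (1.35-fold, adjusted p = 3.71e-07). Slc11a2 (ENSMUSG00000023030, chromosome 15, 100387898 to 100425072, minus strand), the divalent metal transporter DMT1, which moves iron out of endosomes, was at 126, 120 and 123 CPM in controls and at 82.0, 78.8 and 87.4 CPM after co-culture. All co-cultured libraries were lower, with a log2 fold change of -0.57 ± 0.05 (1.48-fold lower, adjusted p = 1.14e-10). Slc11a1 (ENSMUSG00000026177, chromosome 1, 74375195 to 74386062, plus strand), NRAMP1, the metal transporter of phagosomes, was at 624, 630 and 614 CPM in controls and at 689, 632 and 645 CPM after co-culture. These groups just failed to overlap, but the log2 fold change of 0.07 had a 95% interval from -0.027 to 0.17 (adjusted p = 0.220). The ratio of Slc11a1 to Slc11a2 in FPKM went from 8.22 ± 0.279 to 12.8 ± 0.840, 1.56-fold, without overlap (exact permutation p = 0.1).

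The ferroportin transcript set against that of the transferrin receptor gave the widest shift of the 8 ratios. The FPKM ratio of Slc40a1 to Tfrc was 12.9, 12.96 and 14.0 in controls and 5.15, 4.11 and 4.24 after co-culture, 2.97-fold lower. All controls were above all co-cultured libraries, and the exact permutation p was 0.1. Tfrc against Fth1 was 0.00158 ± 1.97e-04 and 0.00181 ± 1.96e-04 and overlapped (p = 0.3, exact permutation).

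**Figure D2:**
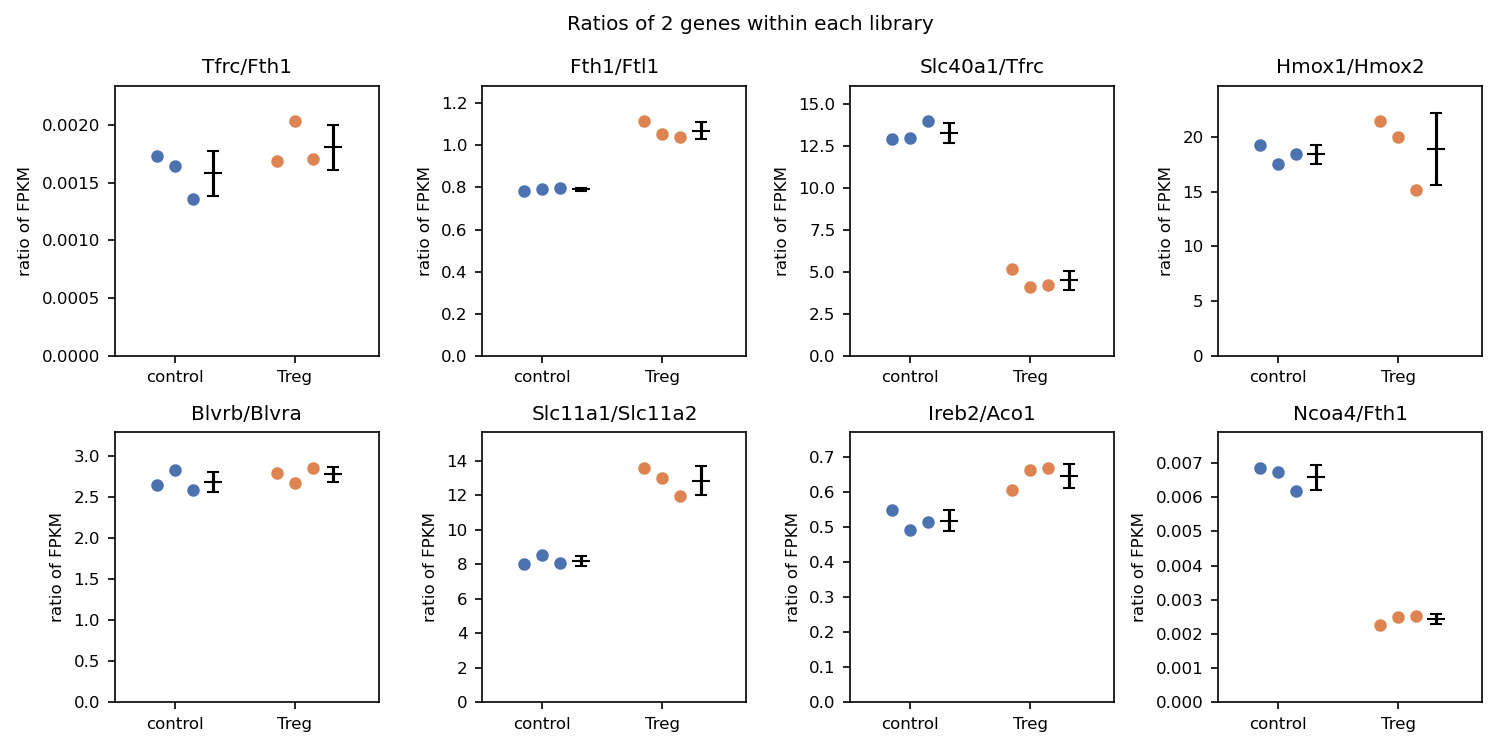
Ratio of FPKM of the first to the second gene (vertical axes, from 0) within each control and Treg co-cultured library, with group mean and SD in black. Fth1/Ftl1, Slc11a1/Slc11a2 and Ireb2/Aco1 are higher and Slc40a1/Tfrc and Ncoa4/Fth1 lower in every co-cultured library, while the other 3 ratios overlap.

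Ireb2 (ENSMUSG00000032293, chromosome 9, 54863789 to 54912530, plus strand), iron regulatory protein 2, was at 81.4, 79.8 and 78.2 CPM in controls and at 77.5, 81.0 and 84.2 CPM after co-culture. The groups overlapped, and the log2 fold change of 0.02 had a 95% interval from -0.092 to 0.13 (adjusted p = 0.788). Its direction is not settled, since the value was -0.05 with upper-quartile scaling. Aco1, the cytosolic aconitase that doubles as iron regulatory protein 1, fell from 102 ± 4.97 to 82.7 ± 1.91 CPM (log2 fold change -0.30, adjusted p = 2.56e-05). Fbxl5, the ubiquitin ligase subunit that marks iron regulatory proteins for degradation in iron-replete cells, rose from 35.3 ± 3.72 to 51.8 ± 1.32 CPM (0.56, adjusted p = 3.59e-08). Ireb2 relative to Aco1 went from 0.518 ± 0.0302 to 0.646 ± 0.0352 in FPKM without overlap (exact permutation p = 0.1).

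Read beside the IRE sequences, genes of each kind split in direction. Of the 3 with the hairpin in the 5′ UTR, Fth1 rose and Ftl1 and Slc40a1 fell. Of the pair with it in the 3′ UTR, Tfrc rose and Slc11a2 fell. Transcripts of Slc11a2 with and without the hairpin are known, and a gene count does not separate them.

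**Figure D3:**
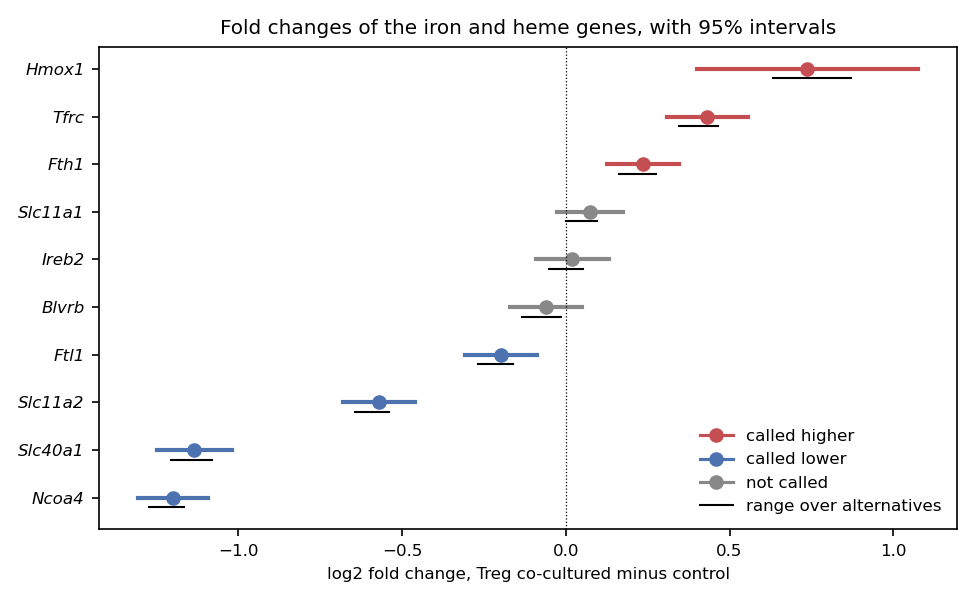
Log2 fold change of each gene, co-cultured minus control (horizontal axis), as points with 95% intervals coloured by call, and below each a thin black line for the range over 17 alternative settings. The range stays on 1 side of 0 for 9 genes and crosses it for Ireb2, and Fth1, Ftl1 and Blvrb changed call under some settings.

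The order of levels per length was nearly kept. In controls mean FPKM ran from Ftl1 (12057) through Fth1 (9552), Hmox1 (723), Slc11a1 (233), Slc40a1 (199), Blvrb (137), Ncoa4 (62.8), Slc11a2 (28.4) and Tfrc (15.0) to Ireb2 (14.0). Only Tfrc and Ireb2, as neighbours, overlapped between libraries. After co-culture it ran from Fth1 (10745) through Ftl1 (10051), Hmox1 (1151), Slc11a1 (235), Blvrb (125), Slc40a1 (86.7), Ncoa4 (26.2), Tfrc (19.4) and Slc11a2 (18.3) to Ireb2 (13.6). There the neighbours Fth1 and Ftl1 overlapped, and so did Tfrc and Slc11a2. Slc40a1 changed place with Blvrb, and the rank of Ncoa4 among all genes went from 901 to 2476. The 10 genes together took 2.32% ± 0.0896 of counts in controls and 2.24% ± 0.0601 after co-culture.

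Around these members, 94 further genes of iron and heme handling were listed in 8 groups, of which 77 could be tested. Of those, 24 rose, 21 fell and 32 missed the threshold, where 25.9% of all genes tested rose and 25.0% fell. The groups did not overlap for 47 of the 77, against 57.2% of all genes. These counts are near the background, so they are no result about the lists, and the median log2 fold change was 0.02, close to that of all genes.

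Heme synthesis and transport genes moved in both directions. Of 12 synthesis genes tested, 4 fell, 1 rose and 7 were not called, where 50.9% of all genes were called. With so few genes this count is no result about the list. Alas1, the first and rate-limiting enzyme outside red cells, fell from 109 ± 9.12 to 68.7 ± 2.42 CPM (-0.66, adjusted p = 3.25e-11). Fech, which inserts iron into the ring, fell from 56.2 ± 1.95 to 43.3 ± 3.01 CPM (-0.38, adjusted p = 8.17e-06). Urod (-0.27) and Cpox (-0.24), which act between them, also fell. In heme breakdown and transport, 3 of 11 rose and 3 fell, close to the 25.9% and 25.0% of all genes. Hp, haptoglobin, which captures free hemoglobin, rose from 2.25 ± 0.491 to 9.44 ± 0.480 CPM (2.05, adjusted p = 2.44e-12). Lrp1, the receptor that takes up heme bound to hemopexin, fell from 6201 ± 775 to 5082 ± 320 CPM (-0.29, adjusted p = 0.00478), and Abcg2, a heme exporter, fell by 0.68 and Pgrmc1, a heme-binding protein, by 0.50 on the log2 scale. Slc48a1, which moves heme out of lysosomes, was at 399 ± 15.9 and 430 ± 50.4 CPM with an adjusted p of 0.178. Cd163, the hemoglobin scavenger receptor, had at most 9 counts in any library and was not tested.

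Uptake and export genes outside the 10 also split. Of 10 uptake genes tested, 4 rose and 2 fell, against 25.9% and 25.0% of all genes. Slc39a14, a transporter of iron not bound to transferrin, rose from 27.5 ± 1.36 to 65.7 ± 4.98 CPM (1.26, adjusted p = 1.05e-16), while its relative Slc39a8 fell from 19.1 ± 0.196 to 11.3 ± 0.785 CPM (-0.76, adjusted p = 5.64e-08). Steap3, the ferrireductase of the transferrin cycle, rose by 0.43 on the log2 scale (adjusted p = 1.66e-06). Slc22a17, described as the lipocalin 2 receptor, fell by 0.94, and Lcn2 itself rose by 0.98 at a mean of at most 1.97 CPM. Snx3 (adjusted p = 0.526) and Mcoln1 (0.475) did not pass the test, nor did Trf, transferrin, at 6.18 ± 0.785 and 4.60 ± 1.47 CPM (-0.42, adjusted p = 0.0667). Trf was called lower with upper-quartile scaling (-0.50, adjusted p = 0.0332) and totals alone (-0.49, adjusted p = 0.0362).

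Of 5 export and hepcidin genes tested, 2 rose and 2 fell, against 25.9% and 25.0% of all genes, and so few genes say little as a list. Cp, ceruloplasmin, the oxidase that works with ferroportin, rose from 15.0 ± 0.707 to 36.9 ± 1.83 CPM (1.30, adjusted p = 1.47e-15), opposite to Slc40a1. Hfe, a hepcidin regulator whose loss causes iron overload, fell from 86.6 ± 6.17 to 57.2 ± 5.18 CPM (-0.60, adjusted p = 8.76e-09). Of the bone morphogenetic protein receptors of this axis, Acvr1 rose by 0.35 and Bmpr1a fell by 0.18 on the log2 scale. Hamp, hepcidin, had 4 counts in control replicate 1 and 0 in every other library. In storage, 2 of 4 rose and 0 fell, against the same shares of all genes. Pcbp1, an iron chaperone for ferritin, went from 149 ± 8.01 to 185 ± 4.72 CPM (0.31, adjusted p = 5.29e-06), and Tax1bp1, an autophagy adaptor of Ncoa4, rose by 0.13 on the log2 scale. Herc2, the ligase that degrades Ncoa4 protein, was at 270.5 ± 35.2 and 271 ± 11.5 CPM (adjusted p = 0.964). In sensing, besides Fbxl5 and Aco1, Skp1a was not called (adjusted p = 0.686).

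Mitochondrial iron genes numbered 21 tested, 4 higher and 7 lower, a share of calls close to the 50.9% of all genes. Hspa9, the mitochondrial chaperone of cluster transfer, rose from 225 ± 6.12 to 322 ± 13.4 CPM (0.52, adjusted p = 1.08e-10), and Slc25a37, mitoferrin 1, the inner membrane iron importer, from 41.7 ± 1.14 to 63.0 ± 3.44 CPM (0.60, adjusted p = 8.34e-10). Nfu1, a late cluster carrier, rose by 0.51 on the log2 scale. Iscu, the scaffold on which clusters form, fell from 54.6 ± 3.58 to 40.5 ± 2.63 CPM (-0.43, adjusted p = 1.75e-06), and Isca1, a later carrier, fell by 0.41.

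The list of transcription factors known to act on Hmox1 or Slc40a1 also held Keap1, which is not such a factor. Of its 10 genes, 9 were called, 7 higher and 2 lower, against 50.9%, 25.9% and 25.0% of all genes tested. Nfe2l2, which encodes NRF2, the activator of Hmox1, Fth1 and Slc40a1, fell from 183 ± 12.4 to 142 ± 5.69 CPM (-0.36, adjusted p = 8.1e-07). Keap1, which targets NRF2 protein for degradation, rose from 61.1 ± 3.74 to 97.6 ± 5.75 CPM (0.68, adjusted p = 1.87e-11). Bach1, the heme-sensing repressor of Hmox1, rose from 184 ± 4.88 to 235 ± 9.48 CPM (0.35, adjusted p = 4.13e-07). The small Maf partners split: Mafk (0.56) and Mafg (0.15) rose, and Maff fell from 7.12 ± 1.44 to 3.80 ± 0.490 CPM (-0.90, adjusted p = 3.64e-05). Hif1a rose from 111 ± 3.95 to 187 ± 5.94 CPM (0.75, adjusted p = 3.74e-14), and Epas1, HIF-2α, from 44.2 ± 2.60 to 104 ± 4.56 CPM (1.23, adjusted p = 4.29e-18). Hairpin matches that need the extra base lay in the 5′ UTR of Epas1 and in the 3′ UTR of Bach1. Spic, the factor of red pulp macrophages that drives Slc40a1 there, rose from 1.18 ± 0.326 to 2.85 ± 0.715 CPM, a low level (adjusted p = 1.91e-04). Protein levels and activity were not measured.

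**Figure D4:**
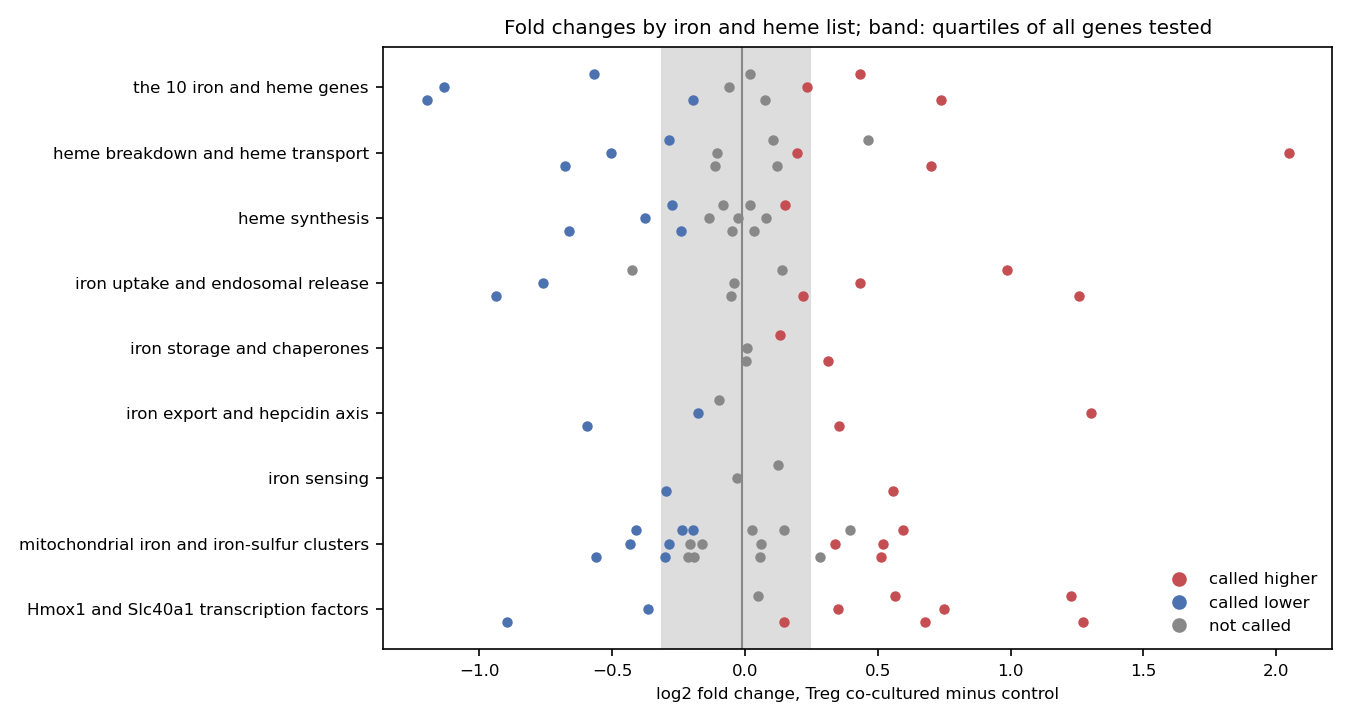
Log2 fold change, co-cultured minus control (horizontal axis), of each tested gene of the 10 members and the 8 wider lists (rows), coloured by call. The grey band runs from the lower to the upper quartile of all 13274 genes tested and the line marks their median of -0.01, and each list with more than 4 tested genes has points on both sides of the line.

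Some calls of the wider genes were lost under at least 1 alternative, among them those of Cpox (highest adjusted p 0.124), Lcn2 (0.122), Tax1bp1 (0.333), Bmpr1a (0.163) and Mafg (0.231). The share of all called genes that were higher was 50.8% under TMM. It was 40.0% when libraries were scaled by the upper quartile (2731 up, 4090 down), 41.0% by totals alone (2774 up, 3997 down) and 42.2% in the FPKM table (2442 up, 3342 down). Of the 7 called members, none changed direction under these scalings.

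The genes closest to 3 members over the 6 samples, by Euclidean distance of mean-centred log2 CPM among 9015 genes of at least 5 CPM, are given as a description. For Hmox1 they were Slc16a3, a lactate transporter (distance 0.168), Il15ra, an interleukin receptor chain (0.169), and Gsr, glutathione reductase (0.193). Gsr, for instance, rose from 78.3 ± 3.26 to 129 ± 14.1 CPM. For Slc40a1 they were Plekhg5 (0.163), Slc9a7 (0.181) and Ngfrap1 (0.188), and for Tfrc they were Lrrc8a (0.0751), Aldh1b1 (0.0814) and Dazap1 (0.0821).

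Markers bear on who made this RNA. Of 10 microglial markers, 9 were tested, 4 higher and 5 lower, against 25.9% and 25.0% of all genes tested. Their summed level was 6050 to 6242 CPM in controls and 5147 to 5442 CPM after co-culture. Csf1r was abundant (2795 ± 28.4 and 2476 ± 158 CPM), whereas P2ry12 and Tmem119, which define microglia in the brain, were at 9.07 ± 0.928 and 7.60 ± 0.565 CPM in controls. Itgam rose by 1.27 on the log2 scale. Markers of monocytes and border macrophages, cells that also handle heme iron, were higher for 5 of 6 tested of 9, against 25.9% of all genes. Their sums were 737 to 777 and 1224 to 1322 CPM. Pf4 went from 24.8 ± 4.21 to 185 ± 53.7 CPM, while Ccr2, a monocyte receptor, was at 1.52 ± 0.375 and 1.51 ± 0.103 CPM (adjusted p = 0.994). Mrc1 went from 270.4 ± 7.14 to 448 ± 23.1 CPM, Ms4a7 from 438.5 ± 21.8 to 568 ± 27.4 CPM and Clec4n from 27.6 ± 3.25 to 55.9 ± 5.48 CPM. Their part in the results above was not tested. Erythroid markers, including the globins, summed to at most 0.289 CPM, and 6 of the 8 listed in the table had 0 counts in every library.

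T cell markers summed to 5.83 to 6.97 CPM in controls and 8.75 to 9.35 CPM after co-culture, with 3 of 10 tested. Cd3e had 0 counts in all controls and 10, 2 and 3 counts after co-culture, and 3 of the 10 markers were at 0 everywhere. Cd4 rose from 2.53 ± 0.726 to 6.41 ± 0.178 CPM. Foxp3, which defines Tregs, was at 3.22 ± 0.313 CPM in the controls, kept without Tregs, and fell to 1.63 ± 0.194 CPM after co-culture. Oligodendrocyte markers were lower for 7 of 9 and higher for 1, against 25.0% and 25.9% of all genes tested. Their sums overlapped at 199 to 222 and 200 to 210 CPM, with Mbp at 104 ± 3.85 and 66.3 ± 1.57 CPM and Cnp at 53.8 ± 3.78 and 129 ± 2.53 CPM. Sums of the other lists hide members that moved, and their counts of calls stand against the same shares, 25.9% higher and 25.0% lower. Endothelial sums were 104 to 112 and 94.4 to 109.8 CPM, with 3 of 4 tested markers higher and 1 lower: Kdr rose from 6.21 ± 0.472 to 33.7 ± 3.51 CPM and Pecam1 from 4.17 ± 0.742 to 18.1 ± 1.01 CPM, while Flt1 fell from 95.6 ± 5.75 to 47.0 ± 4.46 CPM. Astrocyte sums were 30.8 to 34.7 and 33.3 to 41.5 CPM, with 2 of 6 higher and 1 lower: Aldh1l1 rose by 0.83 and Aqp4 fell by 1.88 on the log2 scale. Fibroblast sums were 29.2 to 35.2 and 21.2 to 32.9 CPM, with 2 of 5 higher and 0 lower: Dcn rose from 0.207 ± 0.152 to 1.27 ± 0.471 CPM and Pdgfra from 0.484 ± 0.0741 to 1.86 ± 0.577 CPM. Neuronal sums were 5.83 to 7.56 and 7.86 to 8.71 CPM, with 1 of 5 higher and 0 lower. The part of these cells in the results was not tested.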

How the data were processed

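Libraries were made with the SMART-Seq HT and Nextera XT kits and sequenced in paired-end mode, per the labels' protocols. STAR (no version) and HTSeq 0.11.2 with build GRCm38 were used, per the submitters' processing notes. The sources used here do not give the annotation release or strand setting. Deposited by the authors were raw read counts for 35275 gene rows, and FPKM values whose implied gene lengths were constant within 1e-06 for all 12011 genes checked. FPKM values are scaled by library total.

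From the counts, edgeR 4.0.16 (R 4.3.3) kept 13274 genes by filterByExpr, scaled libraries by TMM and ran the two-sided quasi-likelihood test with robust dispersions, adjusted by Benjamini-Hochberg over all genes tested. The pipeline was tested on simulated data. Ratios of FPKM were compared by exact two-sided permutation over samples, adjusted over 8 ratios. Alternatives used DESeq2 1.42.0, limma 3.58.1 (voom, and log2(FPKM + 1) or log2(FPKM + 0.1)), other scalings and filters, a replicate block and each library left out. The labels do not say whether replicate numbers pair the samples, and the main test treats them as unpaired. Counts of replicate pairs differed by more than sampling noise. Reads carry no molecular identifiers, so counts are not independent molecules.

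The members, lists, tests and naming rule were chosen with earlier results of these data known. Named are all members, the 2 most abundant and up to 5 most significant called genes of each wider list, 12 genes of known role, for marker lists the 2 most abundant and up to 2 most significant, and the 3 nearest profiles of Hmox1, Slc40a1 and Tfrc. Some marker genes that this rule picks are given only within their list's sum, and a few of the genes it picks are left out of the text. P2ry12, Tmem119 and Cd3e, as defining markers, and Maff, Pf4 and Ccr2 were added after their values were seen. IRE hairpins and coordinates came from GENCODE M21 on GRCm38, which may differ from the authors' release.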

Additional observations from a re-analysis of the deposited data

How the results depend on the processing

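Over 17 alternatives, 2 to 3 members were called higher and 3 to 5 lower, against 3 and 4 in the result given. For wider genes the counts were 17 to 24 and 15 to 25, against 24 and 21. Over all genes they were 2436 to 3468 and 2702 to 4090, against 3432 and 3320. Of the 10 members, 6 kept direction and call in every alternative, and of the 65 other named genes 50 did. With each library left out, 3 members were called higher and 4 lower throughout. Same-numbered samples did not deviate together (r from -0.033 to -0.023), and with the replicate block 3 members were called higher and 4 lower, 24 wider genes higher and 21 lower. Reversals were all in values that were not called. Ireb2 came to -0.0517 with upper-quartile scaling, -0.0453 with totals alone and -0.0425 or -0.0453 in the FPKM table, and to -0.0112 to 0.0518 with a library left out. Herc2 came to -0.0666 and -0.0608 with those scalings and -0.0506 or -0.0528 in the FPKM table, and to -0.1011 to 0.067 with a library left out. The range with a library left out was -0.0705 to 8e-04 for Snx3, -0.0581 to 0.0064 for Skp1a and -0.0798 to 0.1705 for the log2 ratio of Hmox1 to Hmox2. Causes were not tested. With 3 samples a group the ratio tests cannot pass 0.05, and Cd163, Hamp and the globins are at the limit of depth.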
